A study of Mus musculus with 34 samples.

Results

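The 6 dual-specificity phosphatase genes Dusp1, Dusp2, Dusp4, Dusp5, Dusp6 and Dusp16 were described by the transcription factor binding measured around them by ChIP-seq in mouse macrophages. Every peak whose midpoint lay inside the gene body or within 20 kb of it in GENCODE for mm10 was assigned to the gene. This gave 842 of the 596383 peaks in 30 lists, for 6 of 21924 annotated protein-coding genes. Overlapping peaks (1 bp or more) of the 12 C57 AP-1 lists were joined into loci. The members held 61 of 49612 such AP-1 loci, and 30 of the 61 lay in the Dusp1 window.

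All lists came from thioglycollate-elicited macrophages (TGEMs), which are recruited into the mouse peritoneum and were kept in culture before use. Cells received vehicle (Veh, PBS) or 100 ng/mL Kdo2 lipid A (KLA), a TLR4 agonist, for 1 h. C57 macrophages, labelled C57Bl/6EiJ while the study's methods name C57BL/6J, gave lists with Veh and KLA for ATF3, Jun, JunD, Fos, FosL2 (labelled Fra2), JunB, PU.1 and C/EBPα. PPARγ was profiled in C57 with Veh only, from 3 pooled antibodies. Balb/cJ macrophages gave ATF3, Jun, JunD, Fos and JunB lists with Veh and KLA. Macrophages labelled PPARgKO, on a C57Bl6 background, gave ATF3, Jun and JunD lists with Veh. Wild-type mice were males of 8 weeks. The age of the knockout mice and the Cre driver, if one was used, were not given in the sources used here. Peak lists hold no expression values, so neither the macrophage identity nor the loss of PPARγ could be checked in them.

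Each condition had 1 list, made over its replicate experiments, so no test between replicates was possible. Differences are given with counting intervals, which cover counting error only, and beside the share that all loci of the genome gave. Lists with peaks held 463 (JunB Veh, C57) to 41573 (PU.1 Veh) peaks, apart from JunB Veh in Balb/cJ with 9. The Fos Veh list of Balb/cJ was empty. Counts were not on a common scale: the median peak count was 277.0 for JunD KLA and 259.0 for PU.1 Veh in C57, and 18.0 to 76.0 in the other lists. Each peak was therefore ranked within its own list. A percentile is the share of the list's peaks with a count no higher, with ties at their mean rank.

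Dual-specificity phosphatases remove the phosphate groups from both the threonine and the tyrosine of the activation loop of mitogen-activated protein kinases (MAPKs), and so switch ERK, JNK and p38 off. TLR4 ligands activate these kinases, which in turn phosphorylate AP-1 proteins and raise the transcription of their genes. Several phosphatase genes are themselves induced by the pathway, which makes them textbook negative feedback regulators. Dusp1, Dusp2, Dusp4 and Dusp5 encode nuclear enzymes, Dusp5 being selective for ERK. Dusp6 encodes a cytoplasmic ERK phosphatase, and Dusp16 encodes a phosphatase that prefers JNK and p38.

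The sequences of the loci on which the results turn are shown first. Each is the central 200 bp of a locus on the plus strand of GRCm38 (mm10). Distances are from the start of the gene to the middle of the locus, negative upstream, in the direction of transcription. Capitals mark matches on either strand to the TRE (TGACTCA, the AP-1 element), the CRE (TGACGTCA, the cAMP response element), the shorter TGACG contained in it, a C/EBP site (TTGCNNAA), a PU.1 site (ACTTCCT), an NF-κB site or a CArG box, the serum response element core. Of the 3 Dusp1 sequences with a TRE, that at -27.03 kb had the highest mean percentile over its C57 AP-1 lists (99.1). That at -6.4 kb had the next highest (98.8). That at -21.71 kb had the most AP-1 factors over 2-fold up after KLA.
Dusp1 -6.4 kb, chr17:26514771-26514970: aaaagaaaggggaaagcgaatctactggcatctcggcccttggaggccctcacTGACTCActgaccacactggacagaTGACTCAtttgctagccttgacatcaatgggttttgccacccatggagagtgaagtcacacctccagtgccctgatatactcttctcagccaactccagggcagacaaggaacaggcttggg
Dusp1 -27.03 kb, chr17:26535404-26535603: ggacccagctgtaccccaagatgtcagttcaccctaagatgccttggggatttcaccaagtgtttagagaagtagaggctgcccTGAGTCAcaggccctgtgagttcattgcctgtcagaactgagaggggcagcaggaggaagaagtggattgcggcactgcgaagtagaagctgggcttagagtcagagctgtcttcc
Dusp1 -21.71 kb, chr17:26530082-26530281: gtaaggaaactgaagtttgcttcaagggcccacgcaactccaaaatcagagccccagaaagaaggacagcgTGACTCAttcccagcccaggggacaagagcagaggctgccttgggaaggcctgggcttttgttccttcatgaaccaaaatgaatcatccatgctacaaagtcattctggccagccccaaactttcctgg
The next 6 were, for each gene, the locus with a peak in the most AP-1 lists. At Dusp6, 3 loci tied at 8 lists and the one with the highest mean percentile is shown. Those of Dusp5 and Dusp6 held 1 TRE, and those of Dusp1, Dusp4 and Dusp16 a C/EBP site.
Dusp1 -63.15 kb, chr17:26571520-26571719: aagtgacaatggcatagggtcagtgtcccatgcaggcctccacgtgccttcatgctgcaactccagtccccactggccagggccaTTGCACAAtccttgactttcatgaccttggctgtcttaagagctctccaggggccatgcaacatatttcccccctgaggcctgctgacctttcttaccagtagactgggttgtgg
Dusp2 -0.75 kb, chr2:127335310-127335509: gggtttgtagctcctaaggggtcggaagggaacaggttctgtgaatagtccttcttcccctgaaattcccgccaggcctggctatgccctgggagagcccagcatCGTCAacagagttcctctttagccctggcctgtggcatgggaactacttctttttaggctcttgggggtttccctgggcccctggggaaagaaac
Dusp4 +4.09 kb, chr8:34811284-34811483: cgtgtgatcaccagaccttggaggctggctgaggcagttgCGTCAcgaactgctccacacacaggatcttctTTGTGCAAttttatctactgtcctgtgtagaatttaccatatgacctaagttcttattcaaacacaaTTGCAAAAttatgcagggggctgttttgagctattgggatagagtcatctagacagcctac
Dusp5 +23.85 kb, chr19:53552899-53553098: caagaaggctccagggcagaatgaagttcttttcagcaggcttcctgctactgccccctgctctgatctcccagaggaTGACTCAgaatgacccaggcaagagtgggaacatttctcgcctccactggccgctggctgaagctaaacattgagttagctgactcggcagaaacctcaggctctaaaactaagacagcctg
Dusp6 -12.25 kb, chr10:99250878-99251077: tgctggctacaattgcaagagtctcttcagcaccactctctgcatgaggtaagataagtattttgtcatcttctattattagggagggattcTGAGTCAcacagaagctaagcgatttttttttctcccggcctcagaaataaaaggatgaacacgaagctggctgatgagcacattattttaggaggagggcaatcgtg
Dusp16 +91.67 kb, chr6:134700855-134701054: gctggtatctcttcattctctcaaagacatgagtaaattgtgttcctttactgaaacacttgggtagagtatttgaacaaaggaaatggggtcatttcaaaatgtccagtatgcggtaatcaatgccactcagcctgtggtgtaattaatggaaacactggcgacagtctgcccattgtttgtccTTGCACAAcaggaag

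Dusp1 stood out in the number of peaks. Its window held 421 of the 842 peaks, against 114 for Dusp6, 101 for Dusp16, 100 for Dusp5, 57 for Dusp2 and 49 for Dusp4. In the 12 C57 AP-1 lists Dusp1 had 173 peaks and ranked 18 of 21924 genes, where the median gene had 4.0. The Dusp1 window spanned 96.5 kb because 1 annotated transcript, Dusp1-205, starts far upstream of the others. Per kb of window it had 1.792 peaks, more than 99.9% of genes. The other members had 15 (Dusp4), 20 (Dusp2), 30 (Dusp16), 36 (Dusp5) and 39 (Dusp6) AP-1 peaks, more than 74.3% to 92.4% of genes.

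Dusp1 had 17 ATF3 peaks with Veh and 24 with KLA, 17 and 16 Jun peaks, 17 and 22 JunD peaks, 2 and 20 Fos peaks, 5 and 16 FosL2 peaks, and 0 and 17 JunB peaks in C57. The whole Fos and JunB lists held 1804 and 463 peaks with Veh and 24365 and 13375 with KLA. Dusp2 had only 1 AP-1 peak with Veh, a JunD peak, and 19 with KLA. Dusp4 likewise had 1 with Veh in C57, for ATF3, and 14 with KLA. In Balb/cJ with Veh, Dusp4 had 2 JunD peaks, 1 ATF3 peak and 1 Jun peak. In C57, Dusp6 had 5 Jun peaks with Veh and 3 with KLA, and 4 and 5 for both ATF3 and JunD. Its Fos peaks numbered 1 and 6, its JunB peaks 1 and 4 and its FosL2 peaks 1 and 0. Dusp6 was also the single member with a JunB peak in Veh. Dusp5 had 3 ATF3 peaks with Veh and 8 with KLA, and Dusp16 had 4 and 6.

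**Figure D1:**
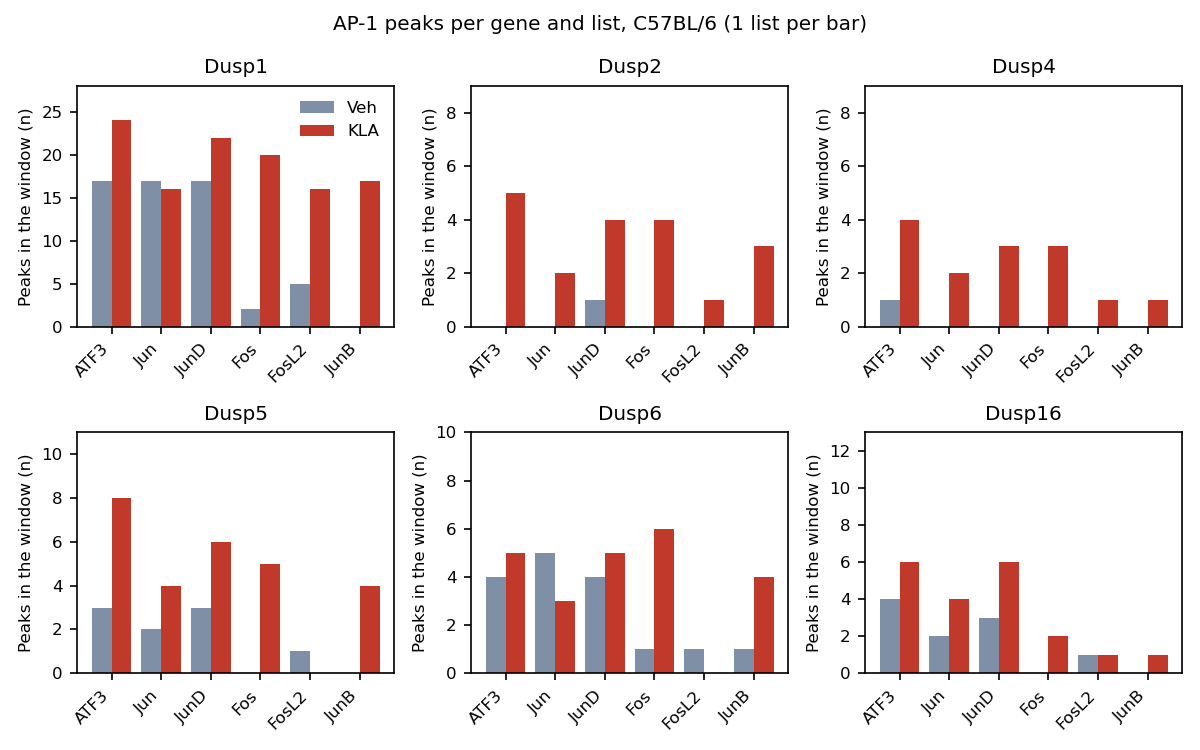
Number of AP-1 peaks in the window of each gene (vertical axis, n, a separate scale for each gene) for 6 factors in C57 with Veh (grey) and KLA (red), 1 list per bar and therefore no error bar. Dusp1 had 17 ATF3 peaks with Veh and 24 with KLA, whereas Dusp2 had 0 and 5.

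Of the 61 member loci, 31 had peaks with both treatments, 1 with Veh only and 29 (47.5%) with KLA only, whereas 38.3% of all AP-1 loci were KLA-only. The difference was gone at a score of at least 830 (41.7% and 42.1%) and in the strongest 50% of each list (39.5% and 38.5%). The genes differed among themselves. All 6 Dusp6 loci had a peak in at least 1 list of each treatment, as did 16 of 30 at Dusp1 and 4 of 7 at Dusp16. At Dusp6 this could rest on 1 factor. With Veh only Jun was listed at -15.32 kb (count 18) and only Fos at -0.16 kb (count 21). With KLA only Fos was listed at +5.71 kb. KLA-only loci made up 5 of 6 at Dusp2, 3 of 4 at Dusp4 and 5 of 8 at Dusp5. Loci with a peak in 9 or more of the 12 lists numbered 14 (23.0%, against 9.71% of all AP-1 loci), of which 12 were at Dusp1, 1 at Dusp5 and 1 at Dusp16.

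PU.1 and C/EBPα, which establish macrophage enhancers, and PPARγ, a lipid-activated nuclear receptor, shared many of these loci. A PU.1 peak overlapped 33 of the 61 (54.1%, all AP-1 loci 55.4%) and a C/EBPα peak overlapped 21 (34.4%, all 31.1%). A PPARγ peak overlapped 29 (47.5%, all 42.6%). All 3 shares were close to those of the genome. By gene, PU.1 peaks overlapped 5 of 6 Dusp6 loci and C/EBPα peaks overlapped 0 of 6 Dusp2 loci.

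**Figure D2:**
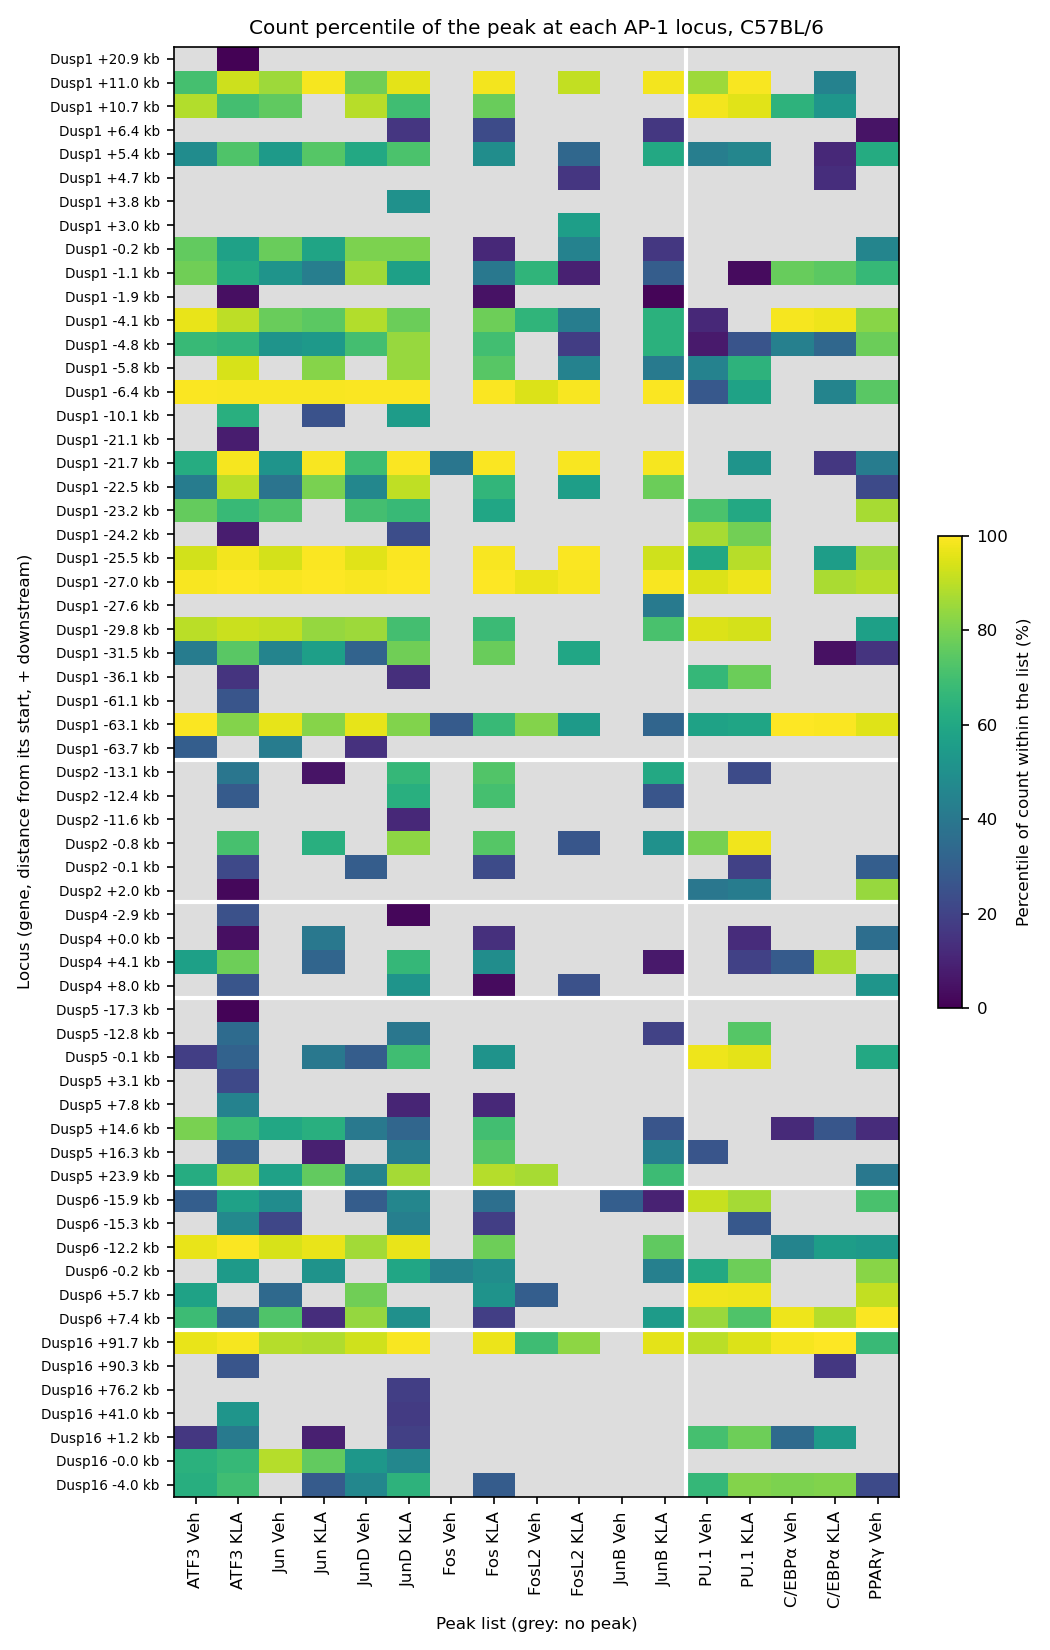
Percentile of the peak count within its list (colour, %) for the 61 AP-1 loci (rows, labelled by gene and distance from its start in kb) in the 17 C57 lists (columns), grey where no peak was listed. The Dusp1 loci at -6.4 and -27.0 kb are near 100 in nearly all AP-1 lists, and most Dusp2 and Dusp4 loci are grey with Veh.

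The strongest AP-1 binding at Dusp1, the phosphatase that acts on p38 and JNK as well as ERK, lay at -6.4 and -27.03 kb, both within an intron of Dusp1-205. At -6.4 kb the ATF3 count was 261 with Veh and 330 with KLA, Jun gave 84 and 99, JunD gave 183 and 926, and FosL2 gave 46 and 127. Fos and JunB had a peak there with KLA only, of 215 and 133. These counts stood at or above percentile 98.9 in 9 of the 10 lists with a peak, and at 94.9 with FosL2 Veh. The locus also ranked near the top in Balb/cJ, at percentiles 97.5 to 99.8 in 8 lists. In PPARgKO it ranked at 99.7 for ATF3, 99.6 for JunD and 96.6 for Jun. These are ranks within each list and do not compare strength between lists. The Jun count was 84 in wild type and 38 in PPARgKO, where the median knockout over wild-type Jun ratio of all shared loci was 0.483. PU.1 was weaker there, at percentile 27.6 with Veh and 57.5 with KLA. The sequence above held 2 TREs.

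At -27.03 kb the percentiles ran from 97.1 (FosL2 Veh) to 99.9 (Jun KLA) over the 10 AP-1 lists with a peak in C57. The Jun KLA count of 117 ranked 25 of 17480, and the ATF3 KLA count of 380 ranked 90 of 36745. Unlike the -6.4 kb locus it was also strong for PU.1, at 94.8 with Veh and 97.5 with KLA. C/EBPα had a peak there only in the KLA list, at percentile 87.4. A neighbouring locus at -25.51 kb reached 98.4 to 99.6 for ATF3, Jun, JunD, Fos and FosL2 with KLA and 92.8 for JunB, and its central 200 bp held none of the motifs searched.

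Among loci with peaks before and after KLA, the largest scaled increases of AP-1 factors were at -21.71 kb. Its ATF3 count was 68 with Veh and 313 with KLA (percentiles 62.0 and 98.8), and Jun went from 26 to 94 (51.6 and 98.9). JunD went from 65 to 930 (69.1 and 99.5) and Fos from 20 to 216 (39.2 and 99.5). FosL2 and JunB were listed with KLA only, at percentiles 99.0 and 98.5. All 6 AP-1 factors were thus in the top 2% of their KLA lists and none was in the top 10% with Veh.

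To set counts of lists of different depth side by side, the KLA/Veh count ratio was divided by the median ratio of all loci with a peak in both lists, giving a scaled ratio. At -21.71 kb it was 2.99 for ATF3 (95% counting interval 2.29 to 3.94), 3.21 for Jun (2.06 to 5.17), 2.46 for JunD (1.91 to 3.21) and 2.48 for Fos (1.57 to 4.15). The same direction was seen in Balb/cJ, where ATF3 went from 30 to 146 (3.00, 2.02 to 4.61) and JunD from 52 to 242 (4.14, 3.05 to 5.70). Divided instead by the ratio of the summed counts of the lists, the values were 2.17, 2.71 and 1.62 for ATF3, Jun and JunD in C57 and 1.97 and 3.43 in Balb/cJ, but 0.33 for Fos, whose direction flipped. C/EBPα and PU.1 had peaks at this locus with KLA only, at percentiles 16.4 and 51.7. The adjacent locus at -22.48 kb moved the same way, with scaled ratios of 2.38 for ATF3 (1.73 to 3.32) and 2.12 for JunD (1.58 to 2.90). Over summed counts these were 1.73 and 1.4.

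Downstream of the gene, the locus at +11.01 kb held a TRE and had ATF3 counts of 80 and 203 (percentiles 70.5 and 92.3, scaled ratio 1.65), Jun counts of 45 and 93 (1.84) and JunD counts of 77 and 719 (1.60). Over summed counts the C57 ratios there were 1.2 for ATF3, 1.55 for Jun and 1.06 for JunD. In Balb/cJ the scaled ratios there were 1.89 for ATF3, 1.17 for Jun (0.77 to 1.78) and 2.38 for JunD (1.84 to 3.10). The interval of Jun in Balb/cJ included 1. The locus at -5.79 kb had no AP-1 peak with Veh and a peak for all 6 factors with KLA, from percentile 41.1 (JunB) to 93.9 (ATF3, count 217), so that no ratio could be formed.

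The opposite was seen for ATF3, Jun and JunD at -63.15 kb. This locus lay within an intron of Ergic1, which encodes a protein of the ER-Golgi intermediate compartment. It was the locus with peaks in the most AP-1 lists of any member, 11 of 12. The ATF3 count fell from 264 to 142 (percentiles 99.4 and 81.5), a scaled ratio of 0.35 (0.28 to 0.43). The ratios of Jun and JunD were 0.66 (0.45 to 0.97) and 0.61 (0.50 to 0.75). In Balb/cJ they were 0.55 (0.43 to 0.71) for ATF3, 0.49 (0.32 to 0.74) for Jun and 0.44 (0.33 to 0.58) for JunD. The direction was the same for these 6 pairs when summed counts were used, at 0.25 to 0.56. In C57, Fos rose in rank at this locus, from percentile 28.6 to 67.4 (18 and 67, scaled ratio 0.86). FosL2 went from 34 to 51 (percentiles 81.6 and 54.6, scaled ratio 0.67). JunB was listed with KLA only, at percentile 32.6. C/EBPα was among the strongest of its list at this locus, at percentile 99.9 with Veh (rank 17 of 12892) and 99.5 with KLA, with a scaled ratio of 0.93 (0.79 to 1.09). Whether this distant locus acts on Dusp1 or on Ergic1 cannot be told from peak positions.

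**Figure D3:**
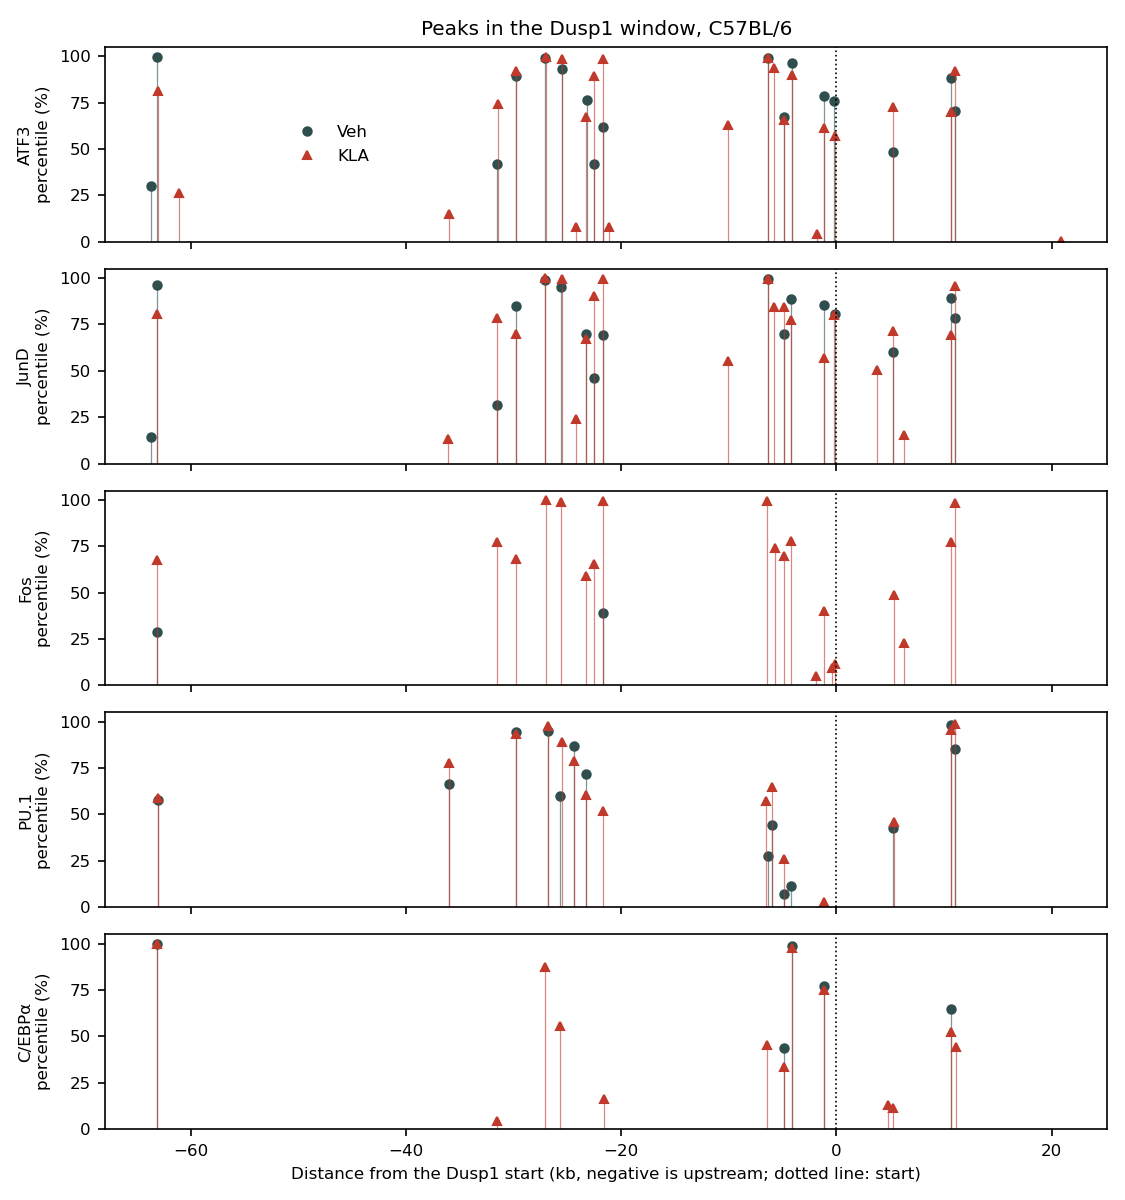
Peaks in the Dusp1 window in C57, plotted by distance from the Dusp1 start (horizontal axis, kb, upstream to the left) and by percentile within the list (vertical axis, %) for ATF3, JunD, Fos, PU.1 and C/EBPα with Veh (circles) and KLA (triangles). At -21.7 kb ATF3 stood at 62.0 with Veh and 98.8 with KLA, and at -63.1 kb it stood at 99.4 and 81.5.

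Dusp2, which is expressed mainly in haematopoietic cells, was bound by AP-1 factors chiefly after KLA. With Veh its window also held 4 PPARγ peaks (best percentile 84.6) and 2 PU.1 peaks (best 79.5) in C57. Its leading locus at -0.75 kb had a peak in all 6 KLA lists of the AP-1 factors and in none with Veh. The KLA counts were 110 for ATF3, 36 for Jun, 494 for JunD, 75 for Fos, 36 for FosL2 and 34 for JunB, at percentiles from 26.8 for FosL2 to 83.1 for JunD. In Balb/cJ it was again present in all 5 KLA lists, from 59.0 for Jun to 89.4 for JunD, and in no Veh list. PU.1 was present there with either treatment, with a count of 473 with Veh and 250 with KLA, at percentiles 79.5 and 97.8. The scaled PU.1 ratio was 2.12 (1.82 to 2.48).

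Dusp4 had 4 AP-1 loci. In C57 the intronic one at +4.09 kb had an ATF3 peak of 62 with Veh and 129 with KLA (percentiles 56.7 and 77.8, scaled ratio 1.35). Divided by summed counts that ratio was 0.98. Jun, JunD, Fos and JunB had peaks there in C57 with KLA only. In Balb/cJ the only AP-1 peak at this locus was that of Fos with KLA, at percentile 15.5. C/EBPα rose at the same place from 55 to 142, a scaled ratio of 2.81 (2.05 to 3.91) and percentiles of 28.8 and 87.2. A PU.1 peak at +10.56 kb, outside the AP-1 loci, went the other way, from 579 to 61, a scaled ratio of 0.42 (0.32 to 0.55). Its percentile was 86.6 with Veh and 49.0 with KLA.

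Dusp5 had its most widely bound locus at +23.85 kb, downstream of the gene. ATF3 stood at percentile 62.0 with Veh and 85.7 with KLA, Jun at 57.2 and 76.1, and JunD at 44.6 and 86.6. Scaled ratios were 1.53 for ATF3 and 1.96 for JunD, all below 2-fold. Fos and JunB were present with KLA only, at 88.7 and 68.5, and FosL2 with Veh only, at 87.0.

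Dusp6 was bound with both treatments. At -12.25 kb ATF3 stood at percentile 96.5 with Veh and 99.4 with KLA, Jun at 93.9 and 96.8, and JunD at 86.1 and 96.8. Scaled ratios there were 1.17 (0.98 to 1.41), 1.18 (0.83 to 1.68) and 1.42 (1.14 to 1.78), and over summed counts 0.85, 0.99 and 0.94. The +7.36 kb locus was strongest for PPARγ, with a count of 337, rank 160 of 31089 and percentile 99.5. C/EBPα also bound there, at 97.3 with Veh and 89.0 with KLA. ATF3 fell at that locus from 77 to 58, a scaled ratio of 0.49 (0.34 to 0.70).

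Dusp16 had its most widely bound locus at +91.67 kb, within an intron of the neighbouring gene Borcs5. ATF3 stood at 96.6 with Veh and 98.8 with KLA and JunD at 92.9 and 99.1, and Fos and JunB reached 97.1 and 95.9 with KLA. C/EBPα KLA gave its highest member peak here, a count of 373 that ranked 6 of 14802. The scaled ratio of ATF3 was 1.07 and that of JunD 1.34, and over summed counts 0.77 and 0.89. The locus lay close to the far edge of the window and, as with Ergic1, the gene it acts on was not measured. Jun with Veh in C57 had the same count of 49 (percentile 88.8) there and at the -0.04 kb promoter locus. With Veh in Balb/cJ, Jun had a peak at -0.04 kb (percentile 72.3) and none at +91.67 kb.

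Each factor's KLA-only share at the members was read against all of its own loci. For ATF3, 25 of 54 loci were KLA-only (46.3%, interval 33.7 to 59.4, all loci 43.7%), for Jun 11 of 37 (29.7%, all 35.3%) and for JunD 21 of 49 (42.9%, all 45.4%). For Fos it was 37 of 40 (92.5%, all 92.8%), for FosL2 13 of 21 (61.9%, all 60.0%) and for JunB 29 of 30 (96.7%, all 96.6%). The intervals of all 6 AP-1 factors included the genome share. For PU.1, 16 of 48 loci were KLA-only (33.3%, interval 21.7 to 47.5) against 19.5% of all its loci. By gene, 6 of the 8 PU.1 loci at Dusp2 were KLA-only, whereas 2 of the 16 at Dusp1 were (12.5%). C/EBPα gave 9 of 22 (40.9%, interval 23.3 to 61.3, all 31.2%). In Balb/cJ the shares were 35 of 57 for ATF3 (61.4%, all 51.8%), 11 of 32 for Jun (34.4%, all 34.8%) and 30 of 67 for JunD (44.8%, all 35.9%).

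**Figure D4:**
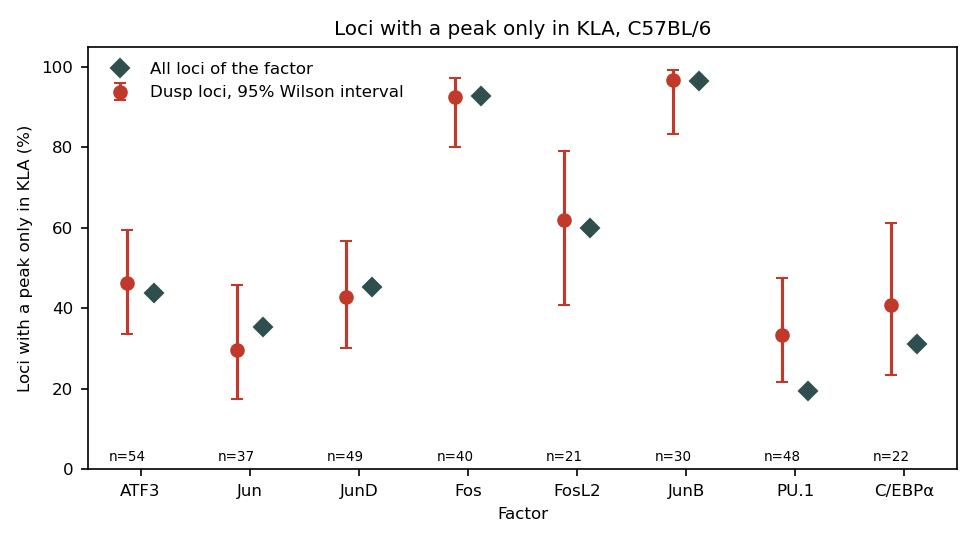
Share of loci with a peak in the KLA list and none in the Veh list (vertical axis, %) for 8 factors in C57, at the phosphatase genes (circles, 95% Wilson interval, n loci printed below) and over all loci of the factor (diamonds). The PU.1 share of 33.3% lies above its diamond at 19.5%, and the AP-1 intervals include theirs.

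Pooled over the 6 AP-1 factors in C57 there were 231 entries, an entry being 1 locus for 1 factor, so that entries share loci. Of these 136 (58.9%, all loci 56.9%) were KLA-only, 82 were in both lists and 13 were Veh-only. Without Dusp1 the KLA-only share was 66.7%. The share with Dusp1 was 31.2% at the members and 29.7% over all loci when the paired lists were shortened to equal length. Of the 82 entries in both lists, 6 had a scaled ratio over 2 (6.24% of all entries in both lists) and 4 were below 0.5 (4.36%). The 6 came from the Dusp1 loci at -21.71 and -22.48 kb. The 4 were ATF3 at Dusp1 -63.15 kb and Dusp6 +7.36 kb, FosL2 at Dusp1 -1.15 kb (28 with both treatments, 0.44) and JunB at Dusp6 -15.93 kb (17 and 20, 0.46).

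**Figure D5:**
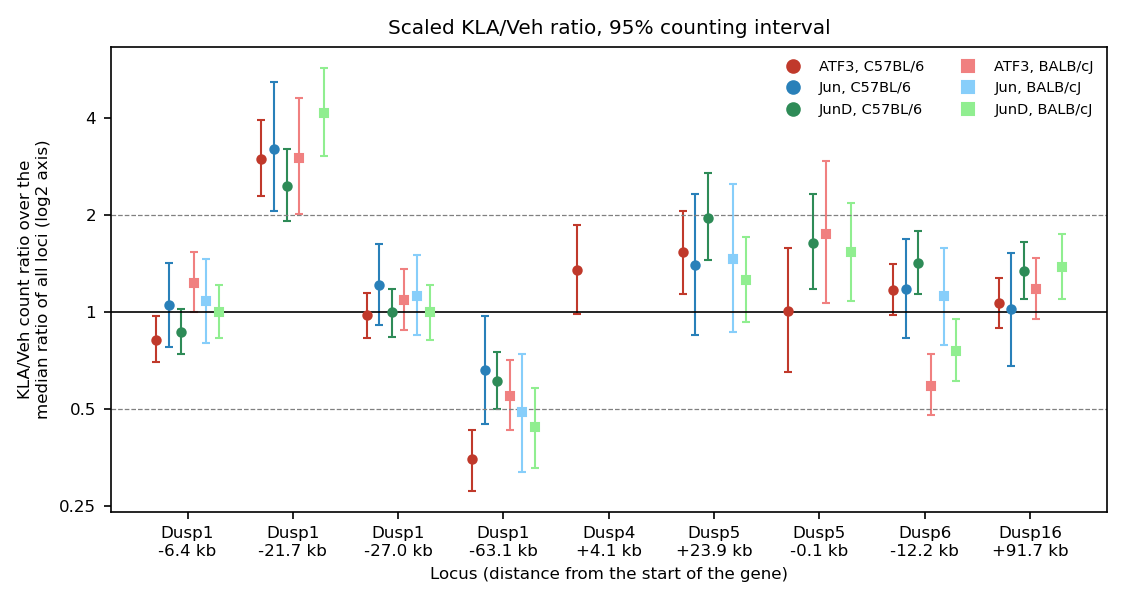
Scaled KLA/Veh ratio (vertical axis, log2 scale) of ATF3, Jun and JunD at 9 named loci (horizontal axis) in C57 (circles) and Balb/cJ (squares), bars being the 95% counting interval, with dashed lines at 2-fold. Values at Dusp1 -21.7 kb lie between 2.46 and 4.14 and those at -63.1 kb between 0.35 and 0.66.

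PU.1 gave a scaled ratio over 2 at 3 of 28 member loci in both lists (4.0% of all PU.1 loci in both), at Dusp2 -0.75 kb and at Dusp1 +11.01 and -25.51 kb. At +11.01 kb the count was 557 with Veh and 288 with KLA, with percentiles of 85.4 and 99.0 and a scaled ratio of 2.08 (1.80 to 2.40). At -25.51 kb it was 307 and 157, with percentiles of 59.8 and 89.1 and a ratio of 2.06 (1.69 to 2.50). Raw counts fell at these loci as elsewhere, the median KLA/Veh ratio of all PU.1 loci being 0.249. The single PU.1 ratio below 0.5 (6.11% of all) was that at Dusp4 +10.56 kb. For C/EBPα, 1 of 13 ratios was over 2 (4.34% of all), that at Dusp4 +4.08 kb, and 0 were below 0.5 (3.06%).

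The strains were compared in 8 pairs of lists, 3 with Veh and 5 with KLA. Of 383 entries, 216 (56.4%) were in both strains, 66 (17.2%, all loci 20.7%) in C57 only and 101 (26.4%, all loci 29.0%) in Balb/cJ only. Over all loci 50.3% were in both. A scaled Balb/cJ over C57 ratio above 2 was found for 1 entry (1.18% of all entries in both lists) and one below 0.5 for 3 (1.45%). The entry above 2 was ATF3 with KLA at Dusp6 +7.39 kb, with 58 in C57 and 73 in Balb/cJ (2.04, 1.43 to 2.93). Those below were ATF3 with KLA at Dusp1 -10.08 kb (94 and 28, 0.48), Fos with KLA at Dusp4 +4.12 kb (50 and 35, 0.38) and JunB with KLA at Dusp1 -22.49 kb (52 and 38, 0.47). The leading Dusp1 loci at -6.4 and -27.03 kb were not among them.

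The knockout comparison used the Veh lists of ATF3, Jun and JunD. Of 95 entries, 50 (52.6%) were in both genotypes, 33 (34.7%, all loci 33.6%) in wild type only and 12 (12.6%, all loci 25.5%) in PPARgKO only. Over all loci 40.9% were in both. Wild-type-only loci numbered 5 of 34 for ATF3 (14.7%, all 15.1%), 17 of 26 for Jun (65.4%, all 73.9%) and 11 of 35 for JunD (31.4%, all 32.1%). The Jun share was high at the members and in the genome alike, and the Jun list of PPARgKO held 4290 peaks against 15548 in wild type. No entry had a scaled knockout over wild-type ratio above 2 (0.4% of all entries in both lists) and 1 was below 0.5 (0.525%). That was Jun at Dusp1 -27.00 kb, with 86 in wild type and 20 in PPARgKO (0.48, 0.28 to 0.79). A PPARγ peak was listed at this locus, at percentile 89.2. ATF3 and JunD at the same locus gave 1.02 (0.83 to 1.25) and 0.99 (0.78 to 1.24). At the Dusp6 locus at +7.36 kb, the strongest PPARγ peak of the members, ATF3 (77, percentile 68.6) and Jun (35, percentile 72.3) had a peak in wild type and none in PPARgKO. JunD was kept there, with a ratio of 0.69 (0.48 to 0.98). The Dusp1 locus at -63.15 kb had the next highest PPARγ percentile of the AP-1 loci, 95.3. There ATF3, JunD and Jun all kept a peak in PPARgKO, at percentiles 99.0, 95.4 and 72.3. At Dusp1 +11.01 kb, where no PPARγ peak was listed, ATF3, Jun and JunD all had a peak in wild type and none in PPARgKO. The adjacent locus at +10.65 kb, also without a PPARγ peak, kept ATF3 and JunD in PPARgKO, at percentiles 92.2 and 92.1. Jun had a peak there in wild type only.

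Sequence was described over the central 200 bp of the loci. A TRE was found at 20 of 61 member loci (32.8%, interval 22.3 to 45.3), and at 27.0% of all 49602 loci on the assembled chromosomes. In windows of the same length 1 kb downstream it was found at 3.83% of all loci. By gene, 10 of 30 Dusp1 loci and 10 of the other 31 held it. Among loci bound in 9 or more lists, 6 of 14 members and 52.5% of all loci had a TRE. In 5 to 8 lists it was 3 of 18 (all 31.6%), and in 1 to 4 lists 11 of 29 (all 20.9%). The widely bound loci at Dusp1 -63.15 and -25.51 kb and at Dusp16 +91.67 kb had none.

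The other motifs were rarer. The CRE was at 2 loci (3.28%, all 1.45%), both at Dusp1, and TGACG, which the CRE contains, was at 11 (18.0%, all 15.5%). The C/EBP site was at 9 (14.8%, all 15.6%), the PU.1 site at 8 (13.1%, all 18.6%) and the CArG box at 1 (1.64%, all 1.24%). The NF-κB site was at 0 of 61 and at 2.27% of all loci. For none of the 7 motifs did the 95% Wilson interval of the members leave out the share of all loci. In the central 100 bp it did for the PU.1 site, at 2 of 61 loci (3.28%, interval 0.904 to 11.2) and 11.6% of all. These are matches to letters and not measured binding sites.

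Promoters were examined because peaks lay within 1 kb of an annotated start at every member. With Veh, 5 of 6 members had such a peak in at least 1 C57 AP-1 list (26.8% of all genes), Dusp4 being the exception, and with KLA 6 of 6 did (26.5% of all genes). In Balb/cJ the Dusp4 promoter had JunD (percentile 80.2) and Jun (23.4) peaks with Veh. With KLA it had ATF3 (12.2) and Fos (63.7) peaks there. At Dusp1 the promoter locus had ATF3 at percentile 75.8 with Veh and 57.1 with KLA, and JunD at 80.4 and 80.2. At Dusp6 the promoter peak was in 5 KLA lists and 1 Veh list, and at Dusp16 it was in 3 and 3, all for ATF3, Jun and JunD. PU.1 was strong at the Dusp5 promoter, at 97.6 with Veh and 95.9 with KLA.

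The RefSeq promoter table for GRCm38.p6 matched 5 of the 6 members. The promoters of Dusp1 and Dusp5 are shown on the strand of the gene, up to the first annotated transcribed base, because they carried the less common motifs. The Dusp1 promoter held a CRE, present in 1.79% of 32851 promoters, and the Dusp5 promoter held 2 CArG boxes (1.63% of promoters) and a PU.1 site (9.35%).
Dusp1 promoter, chr17:26508520-26508722: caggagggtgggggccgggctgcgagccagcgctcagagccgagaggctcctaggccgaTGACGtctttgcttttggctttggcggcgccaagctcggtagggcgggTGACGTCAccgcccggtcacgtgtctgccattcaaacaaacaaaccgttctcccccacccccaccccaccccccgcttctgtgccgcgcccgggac
Dusp5 promoter, chr19:53528895-53529108: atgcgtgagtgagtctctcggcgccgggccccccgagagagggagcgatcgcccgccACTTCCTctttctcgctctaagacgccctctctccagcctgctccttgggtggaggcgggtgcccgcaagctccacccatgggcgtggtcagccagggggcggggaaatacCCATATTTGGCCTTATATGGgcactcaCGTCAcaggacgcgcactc
No member promoter held a TRE, which was in 5.2% of all promoters. These shares are over windows from 250 bp before to 50 bp after the start. TGACG was in 4 of 5, against 20.8%: upstream of the start at Dusp1, Dusp5 and Dusp16, and 5 bp past it at Dusp2. No C/EBP or NF-κB site was found, at 10.8% and 1.47% of all promoters.

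Other genes of the MAPK cascade were counted from fixed lists, by whether any C57 AP-1 peak lay in the same kind of window. Over all protein-coding genes 56.5% had one with Veh and 59.4% with KLA, and all 6 members did with each. Of the other MAPK phosphatases, 4 of 4 had a peak with Veh and 3 of 4 with KLA. Dusp7 led with 20 Veh and 35 KLA peaks, Dusp10 had 14 and 25, and Dusp9 had 1 and 0. Among atypical dual-specificity phosphatases, which lack the kinase-binding domain, 7 of 9 had a peak with Veh and 9 of 9 with KLA. The Sprouty and Spred inhibitors of ERK signalling gave 5 of 6 with each treatment, Spred2 having 8 and 25 and Spry4 none.

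The kinases of the cascade were counted in the same way. MAP kinases gave 7 of 10 with Veh and 8 of 10 with KLA, led by Mapk14, which encodes p38α, with 23 and 89 peaks. MAP2K genes gave 7 of 7 with both and MAP3K genes 7 of 8 and 8 of 8. MAPK-activated kinases gave 8 of 9 and 9 of 9, led by Mapkapk2, the p38 substrate kinase that stabilises cytokine mRNA, with 28 and 90. Peak counts of these genes grow with the length of the gene and were not scaled.

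The genes most like each member were found from the best percentile in the window over the 29 lists that hold a peak, by the mean absolute difference, a smaller value being more alike. For Dusp1 they were Susd1 (1.4 percentile points) and Nek4 (1.7), where the median gene differed by 75.7. For Dusp16 they were Ankrd44 (3.1) and Slc45a4 (3.8), and for Dusp2 Ccdc167 (6.2) and Trpm4 (7.2). The pattern of Dusp6 was nearest to Tmem170b (7.9) and Dusp23 (8.5), that of Dusp5 to Stx7 (8.7) and Rfc2 (9.0), and that of Dusp4 to Zfp131 (10.7) and Snrpf (10.8). A gene bound near the top of every list will be close to any other such gene on this measure.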

How the data were processed

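ChIP-seq peak lists of 30 samples were used, and 4 input samples had no list. Per the study's methods, the authors used Bowtie2 with mm10, or with a BALB/cJ genome whose positions were then shifted back. They called 200 bp peaks in HOMER against the matching input and kept those with IDR under 0.05. The deposited columns used were the count, whole numbers of tags per peak, and the IDR score (540 to 1000). How the authors combined replicate counts, and the version numbers of Bowtie2 and HOMER, were not given in the sources used here.

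The members and gene lists were chosen with earlier results of these data known. Windows used GENCODE M21. Loci were joined at 1 bp of overlap. Intervals are 95% Wilson for shares and exact binomial for count ratios, and cover counting error only, as PCR reads are not independent molecules. Loci were named by a fixed rule: for each gene the locus in the most AP-1 lists, the one with the highest percentile in any list, and those within 1 kb of a start. Other loci named were chosen after their values were seen. Python 3.11.15, pandas 2.3.3, numpy 2.4.6 and scipy 1.17.1 were used. The scripts were tested on simulated data.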

Additional observations from a re-analysis of the deposited data

Results flagged for a closer look

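The JunD peak at Dusp6 -12.24 kb was picked out because its KLA/Veh change went opposite ways in the strains. The scaled ratio was 1.42 in C57 (91 with Veh and 752 with KLA, interval 1.14 to 1.78) and 0.76 in Balb/cJ (174 and 149, interval 0.61 to 0.95). It was 1 of 45 locus and factor entries with a ratio in both strains whose intervals lay on opposite sides of 1. With 1 list per condition the difference was not tested. Scaled by summed counts, the ratios were 0.94 and 0.63, both below 1. ATF3 at the same locus gave 1.17 (0.98 to 1.41) in C57 and 0.59 (0.48 to 0.74) in Balb/cJ, and Jun gave 1.18 and 1.12.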

How the results depend on the processing

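With 1 list per condition, leaving out a replicate was not possible. No paired analysis was possible because each condition had 1 list and no result came from a test. For the chief results there were 102 comparisons of a main value with an alternative. Of these, 76 moved by less than the interval, or less than 1.5 times for counts, and 26 moved by more. For finer results, such as single genes or factors, 142 values stayed by the same rule and 36 moved. Scaling by summed counts cannot change which lists hold a peak, so some values could not move. Keeping the strongest 50% of each list left 38 AP-1 loci, 526 peaks, 52.1% KLA-only entries (all loci 56.7%), 63.2% of strain entries in both lists (58.2%), 1 KLA entry below 0.5 and 3 above 2, and 0 strain entries beyond 2-fold in each direction. A window of 50 kb gave 93 loci, 5 strain entries below 0.5 and 4 above 2, and 2 knockout entries below 0.5. A window of 5 kb gave 2 KLA entries below 0.5, and a score of at least 830 gave 1. Lists cut to equal length gave 31.2% KLA-only entries (all loci 29.7%), 62.1% of strain entries in both lists (55.9%) and 0 knockout entries below 0.5. Assigning loci to the nearest start also gave 0 of the latter. Scaling by summed counts gave 20 KLA entries below 0.5 and 2 above 2 (all loci 9739 and 769 of 46991), 5 and 6 for strain (4113 and 2345 of 128896), and 0 and 4 for knockout (183 and 2810 of 31999), so 2-fold calls depend on the scaling, over all loci too. Allowing 1 mismatch, 75.4% of member loci and 69.1% of a sample of all loci held a TRE. Without the Fos, FosL2 and JunB lists, an alternative chosen after seeing the data, 40.7% of entries were KLA-only (all loci 42.3%).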
